A study of Mus musculus with 18 samples.

Results

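The genes of urea formation and ammonia handling in mouse liver were examined in 18 RNA-Seq libraries. The members are 10 genes chosen by their function in the pathway, Cps1, Otc, Ass1, Asl, Arg1, Nags, Slc25a15, Glul, Gls2 and Slc7a2, out of 21018 genes listed in at least 1 of the tables of gene counts. They were chosen with earlier results of these data known, so the numbers of members called are descriptions. All 10 were found by symbol in each of the 3 tables, and no filter on low counts removed any of them. The mice were 12-week-old male C57/B6J animals, and the tissue was whole liver taken 4 hours after treatment. Mice ILB_9579, ILB_9582 and ILB_9583 had received 20 µg/kg of IL-1β, an inflammatory cytokine, and mice UNT_9574, UNT_9575 and UNT_9576 had received saline. RNA of each of these 6 mice was made into a library with 3 kits. TruSeq selects poly(A) RNA, keeps the strand and was given 200 ng. Pico takes total RNA, keeps the strand and was given 1.7 to 2.6 ng, and V4 takes poly(A) RNA without strand and was given 0.8 to 1.3 ng. Reads were 125 bases long in TruSeq and 150 in Pico and V4. The study's methods credit the TruSeq libraries to an earlier study and name another instrument for them. A difference between TruSeq and the other kits thus cannot be told apart from one between sequencing runs in these libraries. The paper compared separate TruSeq runs of the same samples to control for batch effects, and reports high overlap of the genes called. Only a single TruSeq run is among the 18 libraries. The comparison asks how each gene differed between IL-1β and saline livers, and whether the kits gave the same difference.

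The urea cycle turns ammonia, which is toxic to the brain, into urea for excretion, and the liver is the only organ that runs the whole cycle at a high rate. In mitochondria, carbamoyl phosphate synthetase (Cps1) captures ammonia with bicarbonate, and it works only in the presence of N-acetylglutamate made by Nags. Ornithine transcarbamylase (Otc) joins the product to ornithine, which the carrier Slc25a15 brings in as citrulline leaves. In the cytosol, argininosuccinate synthase (Ass1) and lyase (Asl) make arginine, and arginase (Arg1) splits it into urea and ornithine. The liver-type glutaminase Gls2 feeds ammonia to the cycle from glutamine in the periportal hepatocytes, and glutamine synthetase (Glul) takes up what escapes in the few hepatocytes around the central vein. Slc7a2 is a carrier of cationic amino acids that brings arginine, lysine and ornithine into the cell.

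The TruSeq libraries held 12348864 to 12858237 counts, those of Pico 4024632 to 4134070 and those of V4 12013453 to 12352473. Totals were close within a kit, but every IL-1β total lay below every saline one in TruSeq and Pico. The counts of a gene are printed without scaling, and the fits take the totals into account. Each table was normalized separately, and levels set across kits are descriptions. The treatment left its mark in every IL-1β library: Saa3, an acute-phase gene, had 67 to 76 counts in the saline TruSeq libraries and 40786 to 47194 in the IL-1β ones, and Lcn2, another, had 54 to 91 and 44980 to 55197. The libraries held liver RNA as labelled, and 10 hepatocyte genes together had 58374 to 118368 CPM (counts scaled to a library of 1000000) in saline over the kits. A gene was called changed at a Benjamini-Hochberg adjusted p of at most 0.05 in limma-voom, fitted to each kit by itself over all genes. The interval given in brackets after a log2 fold change (IL-1β over saline) is its 95% confidence interval, and each group holds 3 mice.

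The 5 cycle enzymes and Gls2 fell after IL-1β in TruSeq, fewer of them were called with the other kits, and Nags, Slc25a15, Glul and Slc7a2 were called with none. In TruSeq 6 members fell, Cps1, Otc, Ass1, Asl, Arg1 and Gls2, against 21.8% of all genes called lower in that kit. In Pico 5 fell, the same genes without Otc, against 10.8% of all genes, and in V4 3 fell, Cps1, Asl and Gls2, against 7.41%. No member was called higher by limma-voom on library totals in any kit. Only Slc7a2 in Pico had an unadjusted p under 0.05 on that side. Of all genes, 12.3% were called higher in TruSeq, 6.78% in Pico and 3.6% in V4. Cps1, Asl and Gls2 were called lower with all 3 kits, as were 866 of the 16184 genes present in all tables, or 5.35%. Highly counted genes are called more often, and where the mean reached 20 counts 30.8% were lower in TruSeq, 17.4% in Pico and 10.7% in V4. The 5 cycle enzymes Cps1, Otc, Ass1, Asl and Arg1 together took 0.751% to 0.916% of the counts in the saline TruSeq libraries and 0.451% to 0.548% in the IL-1β ones. In Pico the shares were 0.725% to 0.880% and 0.509% to 0.581%, and in V4 0.449% to 0.527% and 0.290% to 0.339%. The ranges of these sums did not overlap between treatments in any kit, though taken singly Otc overlapped in Pico and V4 and Ass1 in V4. The sums rest on library totals and lean on the genes with most counts, Cps1 in TruSeq and Pico and Arg1 in V4. Of all genes taken singly, 27.9% in TruSeq, 18.6% in Pico and 18.6% in V4 did not overlap, with IL-1β lower. The numbers of calls are no test of a difference between kits, which the interactions give. In whole liver, fewer cells of a type and less RNA per cell cannot be told apart.

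**Figure D1:**
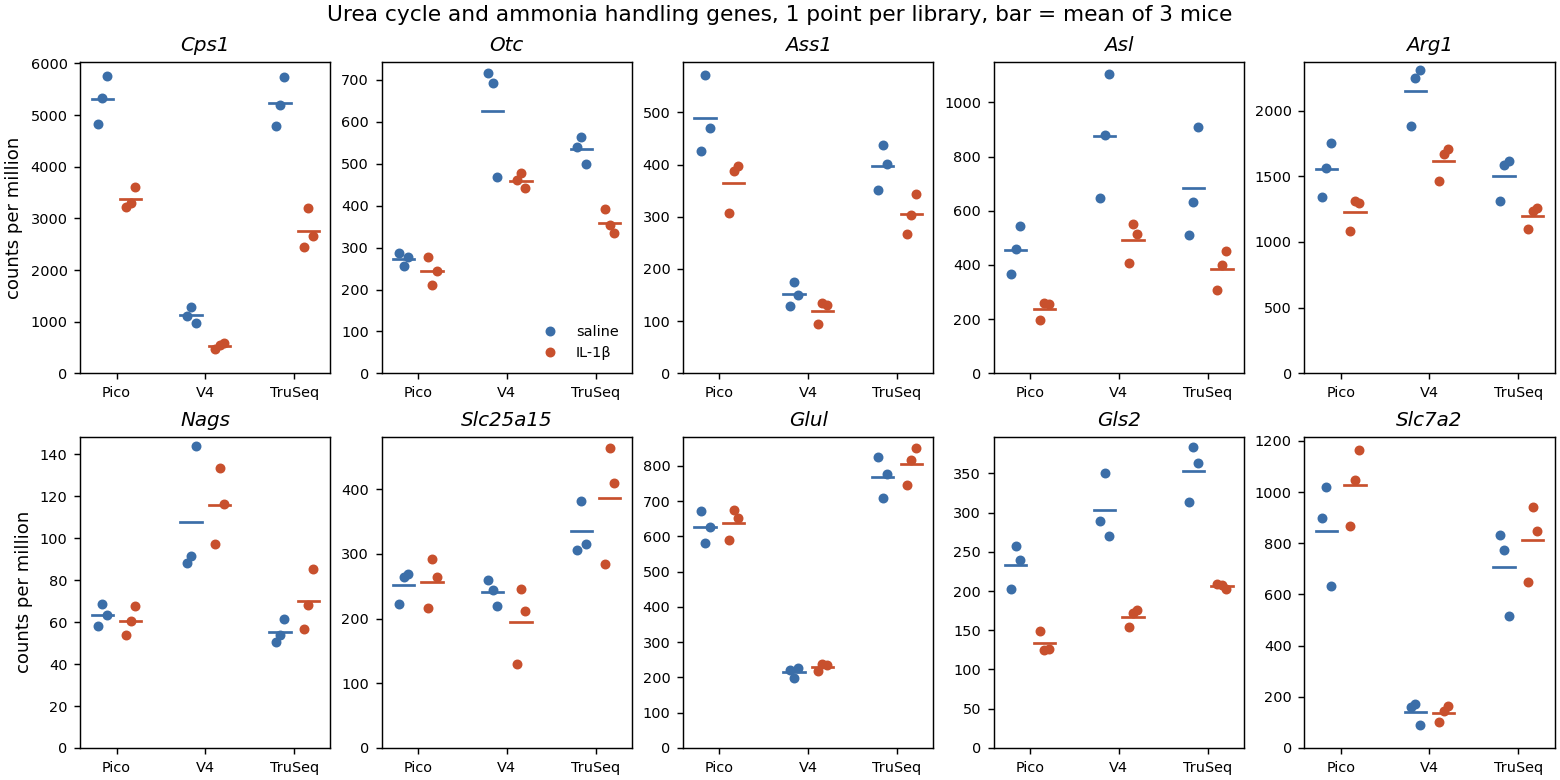
CPM (vertical axes, each starting at 0) of the 10 genes by kit, with 1 point per library and a bar at the mean of 3 mice, saline in blue and IL-1β in orange. The points of the treatments lie apart for Cps1, Asl, Arg1 and Gls2 with every kit, and they mix for Nags, Slc25a15, Glul and Slc7a2.

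Scaling moved these values, and it decided the smaller ones. With library totals, all genes together had a median log2 fold change of -0.17 in TruSeq, -0.12 in Pico and -0.22 in V4, and trimmed-mean (TMM) scaling moved that median up by 0.16, 0.13 and 0.17. The 10 members had medians of -0.35, -0.25 and -0.38 with totals and of -0.20, -0.12 and -0.21 with TMM. Under TMM the calls of Ass1 and Arg1 in Pico and TruSeq were lost and Asl in V4 missed the threshold, while Slc7a2 in Pico and Nags in TruSeq were called higher, as they were by edgeR and DESeq2. TMM left 16.1% of all genes lower and 16.7% higher in TruSeq, 8.16% and 9.16% in Pico, and 4.84% and 4.79% in V4. Cps1 and Gls2 in every kit, Asl in Pico and TruSeq, and Otc in TruSeq were called lower under either scaling.

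Promoter sequences, shown for the letters found in them, were taken from the RefSeq table as 250 bases before and 50 after the start of the transcript. Those of Otc, Ass1, Nags, Slc25a15 and Glul could be placed in mm9, and Cps1, Asl, Arg1, Gls2 and Slc7a2 had no entry. Motifs were searched on both strands for the letters that C/EBP factors (TTNNGNAA), NF-kB, STAT factors (TTCNNNGAA) and the glucocorticoid receptor (ACANNNTGT) are known to bind, and capitals mark the matches. The sequences run 5' to 3' on the strand of the gene, for Otc chrX:9829181-9829480 and Ass1 chr2:31325540-31325839, both called lower in TruSeq, and for Nags chr11:102006577-102006876 and Glul chr1:155746809-155747108, which were not.
Otc: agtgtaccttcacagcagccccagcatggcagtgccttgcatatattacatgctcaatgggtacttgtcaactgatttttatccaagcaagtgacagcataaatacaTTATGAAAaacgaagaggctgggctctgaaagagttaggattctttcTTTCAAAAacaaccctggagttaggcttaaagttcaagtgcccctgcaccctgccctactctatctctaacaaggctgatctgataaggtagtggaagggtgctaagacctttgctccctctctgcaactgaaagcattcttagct
Ass1: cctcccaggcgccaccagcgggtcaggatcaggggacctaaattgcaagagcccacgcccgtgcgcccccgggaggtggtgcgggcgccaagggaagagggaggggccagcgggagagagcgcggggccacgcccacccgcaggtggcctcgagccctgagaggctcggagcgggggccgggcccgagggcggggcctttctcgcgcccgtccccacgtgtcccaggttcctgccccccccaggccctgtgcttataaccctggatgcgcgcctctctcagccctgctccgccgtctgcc
Nags: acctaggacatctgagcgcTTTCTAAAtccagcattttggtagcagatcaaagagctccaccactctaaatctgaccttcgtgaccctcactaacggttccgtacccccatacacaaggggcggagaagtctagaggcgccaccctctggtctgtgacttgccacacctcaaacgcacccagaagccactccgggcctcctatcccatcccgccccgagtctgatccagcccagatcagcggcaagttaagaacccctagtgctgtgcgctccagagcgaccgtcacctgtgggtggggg
Glul: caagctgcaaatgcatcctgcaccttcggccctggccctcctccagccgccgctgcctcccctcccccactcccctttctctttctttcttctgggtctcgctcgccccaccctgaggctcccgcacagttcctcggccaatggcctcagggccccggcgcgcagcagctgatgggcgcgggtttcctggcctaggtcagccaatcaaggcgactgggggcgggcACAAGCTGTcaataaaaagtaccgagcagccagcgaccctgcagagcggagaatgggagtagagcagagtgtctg
Otc held C/EBP letters at -143 and -96 from the start, Nags at -231, and Glul the glucocorticoid receptor letters at -25, while no searched motif was matched in Ass1. C/EBP letters occurred in 40.7% of 32851 promoters of this length, so their presence in Otc and Nags is common. The glucocorticoid receptor letters occurred in 6.85%, those of STAT factors in 8.3% and those of NF-kB in 1.63%. A match describes letters in this window and not binding.

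Cps1 (ENSMUSG00000025991, mm9 chr1:67169600-67277833, plus strand) is the enzyme that commits ammonia to the cycle, and it had the most counts of the members in Pico and TruSeq. In TruSeq its counts were 60688, 66574 and 73672 in saline mice UNT_9574, UNT_9575 and UNT_9576, and 30419, 39421 and 32935 in IL-1β mice ILB_9579, ILB_9582 and ILB_9583. In Pico, with the mice in the same order here and below, they were 19694, 21992 and 23816 in saline and 13058, 13265 and 14587 after IL-1β. In V4 they were 13335, 15461 and 12071 in saline and 5724, 6665 and 7160 after IL-1β. Every IL-1β library lay below every saline library of its kit. This gave log2 fold changes of -0.93 (-1.18 to -0.68, adjusted p = 0.000246) in TruSeq, -0.65 (-0.79 to -0.51, adjusted p = 3.62e-06) in Pico and -1.06 (-1.37 to -0.74, adjusted p = 0.00123) in V4. Cps1 kept its call when any mouse was left out, with values from -1.04 to -0.84 in TruSeq, -0.72 to -0.59 in Pico and -1.15 to -0.96 in V4.

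Nags (ENSMUSG00000048217, chr11:102006827-102010791, plus strand), whose product switches Cps1 on, was the least counted member in Pico and TruSeq and did not follow it. Its counts were 641 to 790 in saline and 706 to 1059 after IL-1β in TruSeq, 238 to 283 and 218 to 273 in Pico, and 1057 to 1776 and 1183 to 1608 in V4, so the treatments overlapped with every kit. The log2 fold change was 0.33 (-0.01 to 0.66, adjusted p = 0.129) in TruSeq, -0.069 (-0.40 to 0.26, adjusted p = 0.797) in Pico and 0.13 (-0.35 to 0.60, adjusted p = 0.739) in V4. With TMM scaling the TruSeq value was 0.48 and was called (adjusted p = 0.0352), and the Pico value changed sign to 0.062. Without mouse ILB_9579 the TruSeq value was 0.47 and called as well. Nags shares 443 bases of exon with Gm11586 on the opposite strand, and the unstranded V4 reads of the pair cannot be told apart.

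Otc (ENSMUSG00000031173, chrX:9829431-9898150, plus strand) was lower in TruSeq and was not called with the other kits. In TruSeq its counts were 6840, 7212 and 6437 in saline and 4863, 4369 and 4141 after IL-1β, with no overlap, and the log2 fold change was -0.57 (-0.79 to -0.36, adjusted p = 0.00134). In Pico they were 1170, 1051 and 1148 in saline and 1123, 853 and 982 after IL-1β, which overlapped, at -0.17 (-0.41 to 0.07, adjusted p = 0.372). In V4 they were 8617, 8380 and 5781 in saline and 5616, 5761 and 5317 after IL-1β. Saline mouse UNT_9576 lay among the IL-1β libraries of V4 once its total was taken into account, and the other saline mice stood well above them. With that mouse the V4 log2 fold change was -0.42 (-0.79 to -0.05, adjusted p = 0.149), and without it -0.62 and called (adjusted p = 0.00953).

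Slc25a15 (ENSMUSG00000031482, chr8:23486026-23509093, minus strand), the mitochondrial ornithine carrier, overlapped between treatments with every kit. Its counts were 3875 to 4889 in saline and 3523 to 5733 after IL-1β in TruSeq, 905 to 1110 and 875 to 1172 in Pico, and 2711 to 3109 and 1573 to 2953 in V4. The log2 fold changes were 0.18 (-0.20 to 0.57, adjusted p = 0.48), 0.025 (-0.24 to 0.29, adjusted p = 0.914) and -0.35 (-0.83 to 0.13, adjusted p = 0.368). IL-1β mouse ILB_9579 was the lowest of its group with each kit, at -0.41, -0.24 and -0.54 from the group mean on the log2 scale. Without it the values were 0.39 (adjusted p = 0.0609) in TruSeq, 0.14 in Pico and -0.077 in V4, none of them called.

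**Figure D2:**
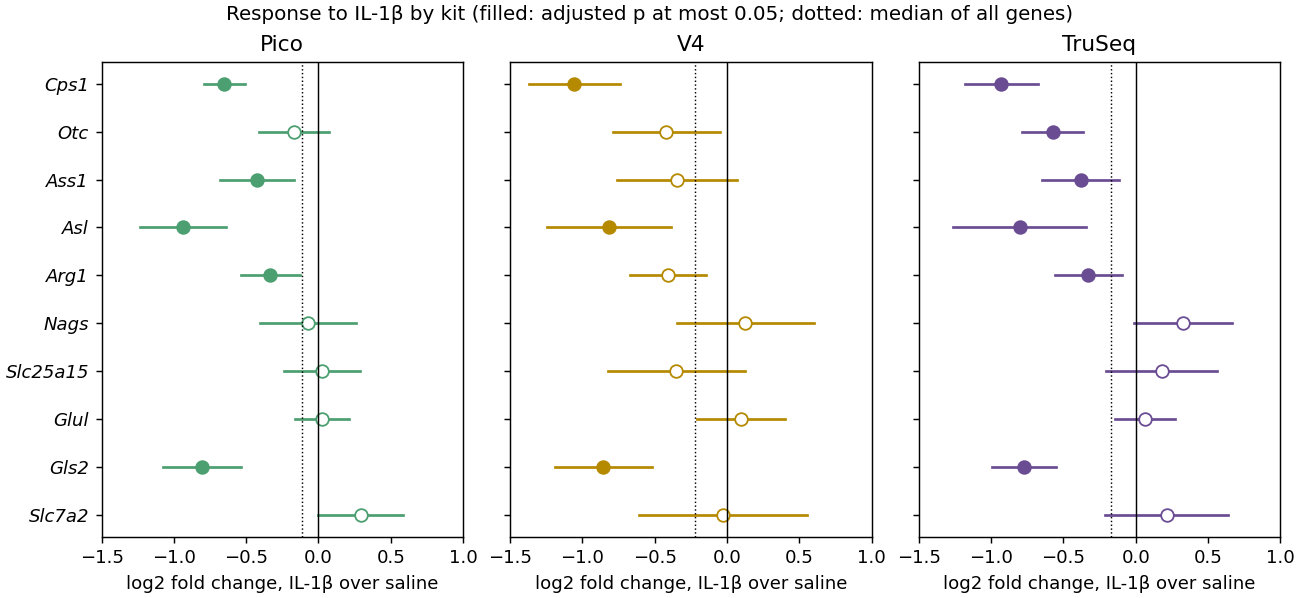
Log2 fold changes of the 10 genes, IL-1β over saline (horizontal axes), by kit, with 95% confidence intervals, filled where the adjusted p was at most 0.05. The dotted line is the median of all genes (-0.12, -0.22 and -0.17), and Cps1, Asl and Gls2 are filled and left of it in every panel.

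Asl (ENSMUSG00000025533, chr5:130487128-130501002, minus strand), which releases arginine and fumarate from argininosuccinate, fell with all kits. In TruSeq its counts were 6461, 8092 and 11706 in saline and 3822, 4929 and 5596 after IL-1β. In Pico they were 1495, 1887 and 2251 against 795, 1047 and 1030, and in V4 7775, 10624 and 13625 against 4960, 6631 and 6198. The treatments did not overlap, but the saline mice stood in the same order with each kit, UNT_9574 lowest and UNT_9576 highest. These were log2 fold changes of -0.80 (-1.26 to -0.34, adjusted p = 0.0135) in TruSeq, -0.94 (-1.24 to -0.64, adjusted p = 0.000183) in Pico and -0.82 (-1.25 to -0.39, adjusted p = 0.0224) in V4. Leaving out single mice kept the direction, with values of -0.99 to -0.58 in TruSeq and -1.02 to -0.63 in V4. The call was lost in TruSeq without mouse ILB_9579, ILB_9582, UNT_9575 or UNT_9576, and in V4 without any mouse but UNT_9574.

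Arg1 (ENSMUSG00000019987, chr10:24635014-24647276, minus strand), the enzyme that forms urea, showed smaller differences, alike in size with all kits. Its counts were 16630, 20251 and 20812 in saline and 13633, 15253 and 15641 after IL-1β in TruSeq. They were 5489, 6427 and 7237 against 4378, 5272 and 5243 in Pico, and 22644, 27146 and 28499 against 17800, 20169 and 20595 in V4. Again no IL-1β library reached a saline one. The log2 fold change was -0.33 in TruSeq (-0.56 to -0.09, adjusted p = 0.0369), -0.33 in Pico (-0.54 to -0.13, adjusted p = 0.0226) and -0.41 in V4 (-0.67 to -0.14, adjusted p = 0.0523). With TMM scaling these values were -0.17, -0.20 and -0.24, and none was called. The call was also lost in TruSeq and Pico without any mouse but UNT_9574, and gained in V4 without UNT_9574 (-0.50). Over the kits, 5 members in Pico, 4 in V4 and 6 in TruSeq had groups that did not overlap with IL-1β lower, where 18.6%, 18.6% and 27.9% of all genes did.

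Ass1 (ENSMUSG00000076441, chr2:31325727-31376192, plus strand) joins citrulline to aspartate, and its counts are uncertain because the genome holds a near-identical copy. The copy, Gm5424 (ENSMUSG00000046687, chr10:61533871-61535109, plus strand), is annotated as a pseudogene in 1 exon. A search of the 1696-base Ass1 transcript in mm9 found 1596 of its bases, or 94.1%, at the place of Gm5424 at up to 99.25% identity, so the match reaches beyond the 1239 bases annotated there as exon. Gm5424 collected more reads than Ass1 in every library, 4.28 to 4.82 times as many in TruSeq, 3.62 to 4.01 times in Pico and 4.56 to 6.196 times in V4. Ass1 itself thus received 17.2% to 18.9% of the reads of the pair in TruSeq, 20.0% to 21.6% in Pico and 13.9% to 17.97% in V4. How many of the reads on Gm5424 came from Ass1 RNA was not tested.

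Read by its own counts, Ass1 fell in Pico and TruSeq. In TruSeq they were 4437, 5612 and 5156 in saline and 3322, 3752 and 4262 after IL-1β, at a log2 fold change of -0.38 (-0.65 to -0.11, adjusted p = 0.0337). In Pico they were 1741, 2359 and 1940 against 1247, 1560 and 1607, at -0.42 (-0.68 to -0.17, adjusted p = 0.0222). The call was lost in Pico without any mouse but UNT_9574 and in TruSeq without ILB_9579, ILB_9582, UNT_9575 or UNT_9576, at -0.52 to -0.30 and -0.47 to -0.29. In V4 the counts were 1547, 2125 and 1855 against 1148, 1615 and 1583, which overlapped, at a log2 fold change of -0.35 (-0.76 to 0.07, adjusted p = 0.299). The counts of Gm5424 moved alike, by -0.40 in TruSeq (adjusted p = 0.0414), -0.40 in Pico (adjusted p = 0.00476) and -0.20 in V4 (adjusted p = 0.556). With the reads of both added together, an alternative chosen after seeing the data, the log2 fold change was -0.40 (adjusted p = 0.038) in TruSeq, -0.41 (adjusted p = 0.00457) in Pico and -0.22 (adjusted p = 0.487) in V4. Under TMM scaling the sum was called lower in Pico alone (-0.28, adjusted p = 0.0394), with -0.24 (adjusted p = 0.2) in TruSeq and -0.06 (adjusted p = 0.858) in V4.

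**Figure D3:**
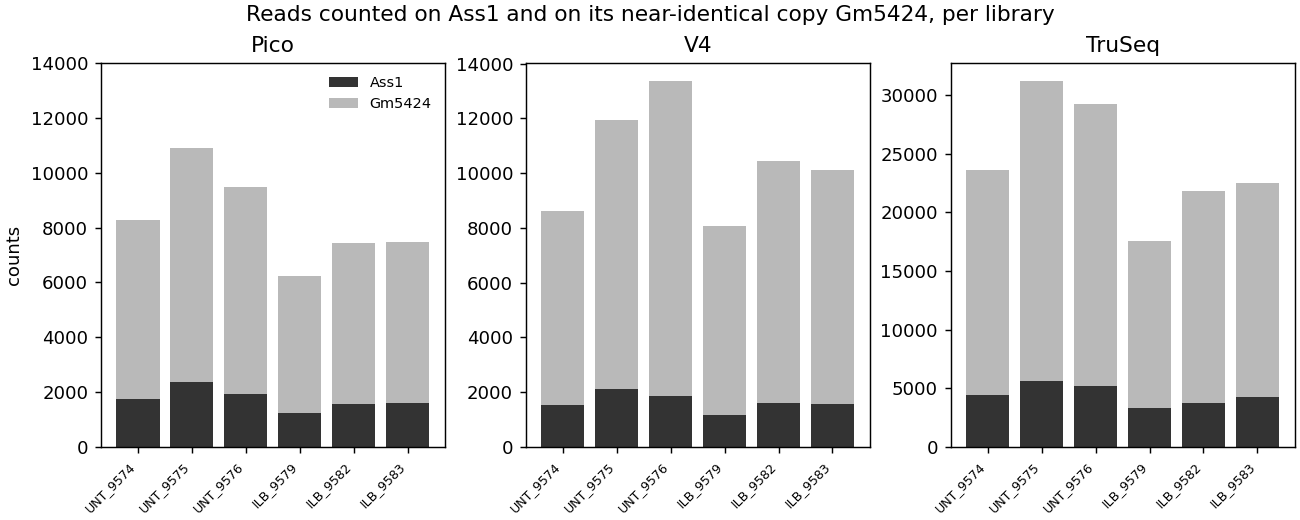
Counts on Ass1 (black) and on its copy Gm5424 (grey, stacked above) in each of the 18 libraries, by kit, saline mice on the left and IL-1β mice on the right of each panel. Grey makes up most of every bar, and Ass1 holds 13.9% to 21.6% of the pair.

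Gls2 (ENSMUSG00000044005, chr10:127631513-127647060, plus strand), the glutaminase that supplies ammonia to Cps1, fell with all kits. In TruSeq its counts were 3961, 4911 and 4664 in saline and 2602, 2564 and 2506 after IL-1β. In Pico they were 826, 1059 and 988 against 605, 502 and 507, and in V4 3477, 4242 and 3341 against 1869, 2074 and 2115. The IL-1β mice lay close together in TruSeq, and the treatments stood apart with every kit. Its log2 fold change was -0.77 (-0.99 to -0.55, adjusted p = 0.000326) in TruSeq, -0.80 (-1.07 to -0.53, adjusted p = 0.000286) in Pico and -0.86 (-1.19 to -0.52, adjusted p = 0.00536) in V4. No left-out mouse took the call away. Gls2 shares 97 exonic bases with Spryd4 on the opposite strand, which V4 cannot separate.

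Glul (ENSMUSG00000026473, chr1:155747074-155756853, plus strand), which disposes of ammonia as glutamine, differed little. Its counts were 9060 to 10438 in saline and 9269 to 10546 after IL-1β in TruSeq, 2394 to 2748 and 2381 to 2716 in Pico, and 2407 to 2796 and 2639 to 2858 in V4. Its log2 fold change was 0.065 (-0.14 to 0.28, adjusted p = 0.619) in TruSeq, 0.025 (-0.16 to 0.21, adjusted p = 0.876) in Pico and 0.094 (-0.21 to 0.40, adjusted p = 0.692) in V4. The intervals are the narrowest among the members not called in Pico and TruSeq. The place of a pseudogene, Glns-ps1, matches 1356 bases, or 48.57%, of the Glul transcript at up to 95.75% identity, and the 1118 bases annotated as its exon held only 512 to 648 counts in TruSeq, 108 to 149 in Pico and 180 to 269 in V4. Its log2 fold changes were 0.12, -0.19 and 0.22, not called in any kit. Glul also shares 67 exonic bases with 5830403L16Rik on the opposite strand, which V4 cannot separate.

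Slc7a2 (ENSMUSG00000031596, chr8:41947750-42007662, plus strand), the cationic amino acid carrier, was not called with library totals. In Pico its counts were 3661, 4198 and 2609 in saline and 3513, 4220 and 4697 after IL-1β. In TruSeq they were 10525, 9916 and 6629 against 8057, 11621 and 10542, and in V4 1932, 2097 and 1119 against 1211, 1756 and 1986. Mouse UNT_9576 was the lowest of its group with every kit, at -0.40, -0.43 and -0.58 from the group mean on the log2 scale in Pico, TruSeq and V4. Without it the log2 fold change was 0.092 in Pico, 0.0012 in TruSeq and -0.32 in V4, none of them called. The log2 fold change was 0.29 (0.00 to 0.58, adjusted p = 0.173) in Pico, 0.21 (-0.21 to 0.64, adjusted p = 0.449) in TruSeq and -0.026 (-0.61 to 0.55, adjusted p = 0.966) in V4. With TMM scaling it was 0.42 in Pico and called (adjusted p = 0.0298), 0.37 in TruSeq (adjusted p = 0.157) and 0.14 in V4 (adjusted p = 0.806). An exon overlap of 635 bases with Gm17475 on the other strand cannot be resolved in its V4 counts, and 3.565% of its transcript matches a repeat.

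The kits were compared by testing, for each pair, whether the response to IL-1β differed (interaction of kit and treatment). With limma-voom 0 members differed at an adjusted p of at most 0.05 in each of the 3 pairs, and edgeR and DESeq2 also gave 0. Of all genes, 0% passed that threshold in each pair, and 5.49% of genes in Pico and TruSeq, 6.36% in V4 and TruSeq and 5.49% in Pico and V4 had an unadjusted p under 0.05. Among the members, Otc had such a p between Pico and TruSeq, with a log2 fold change 0.41 higher in Pico (0.10 to 0.71, unadjusted p = 0.0123, adjusted p = 0.9). Cps1 was the member with such a p between Pico and V4, at 0.41 higher in Pico (0.07 to 0.75, unadjusted p = 0.0223, adjusted p = 0.839). The kits shared the RNA of each mouse, and with the mouse as a replicate block the intervals were narrower. In that fit 0 members again passed the adjusted threshold, and 7.43% of all genes in Pico and TruSeq, 7.37% in V4 and TruSeq and 6.23% in Pico and V4 had an unadjusted p under 0.05. The members with such a p numbered 3 in Pico and TruSeq, 1 in V4 and TruSeq and 2 in Pico and V4. Between Pico and TruSeq they were Otc (0.41, 0.18 to 0.64, adjusted p = 0.517), Cps1 (0.27, 0.11 to 0.44, adjusted p = 0.599) and Nags (-0.41, -0.72 to -0.09, adjusted p = 0.658). Slc25a15 had it between V4 and TruSeq, at -0.52 (-0.80 to -0.23, adjusted p = 0.448). Cps1 (0.41, 0.12 to 0.69, adjusted p = 0.639) and Slc7a2 (0.32, 0.03 to 0.62, adjusted p = 0.738) had it between Pico and V4. For Gls2 the differences between kits lay within intervals from -0.37 to 0.43 with the block, and for Arg1 from -0.21 to 0.24.

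Per kilobase of exon, Arg1 and Cps1 were the most abundant members in the saline TruSeq libraries, at 1020 ± 113 and 944 ± 84.3 CPM per kb (SD, n = 3), and their ranges overlapped. Glul followed at 231 ± 17.6, then Ass1 at 172 ± 19.1, Asl at 150.0 ± 44.9 and Otc at 126 ± 7.50. Asl overlapped with both Ass1 and Otc, while Ass1 stood apart from Glul and Otc from Gls2. Gls2 had 102 ± 10.5, Slc25a15 96.9 ± 11.98 and Slc7a2 77.4 ± 18.4 CPM per kb, which also overlapped in that order. Nags came last at 19.5 ± 1.96, apart from all others. After IL-1β, Arg1 had 811 ± 59.5 and Cps1 498 ± 69.1 CPM per kb in TruSeq, and the overlap of the saline libraries was gone. The Ass1 level leaves out the reads on its copy and is uncertain for that reason.

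**Figure D4:**
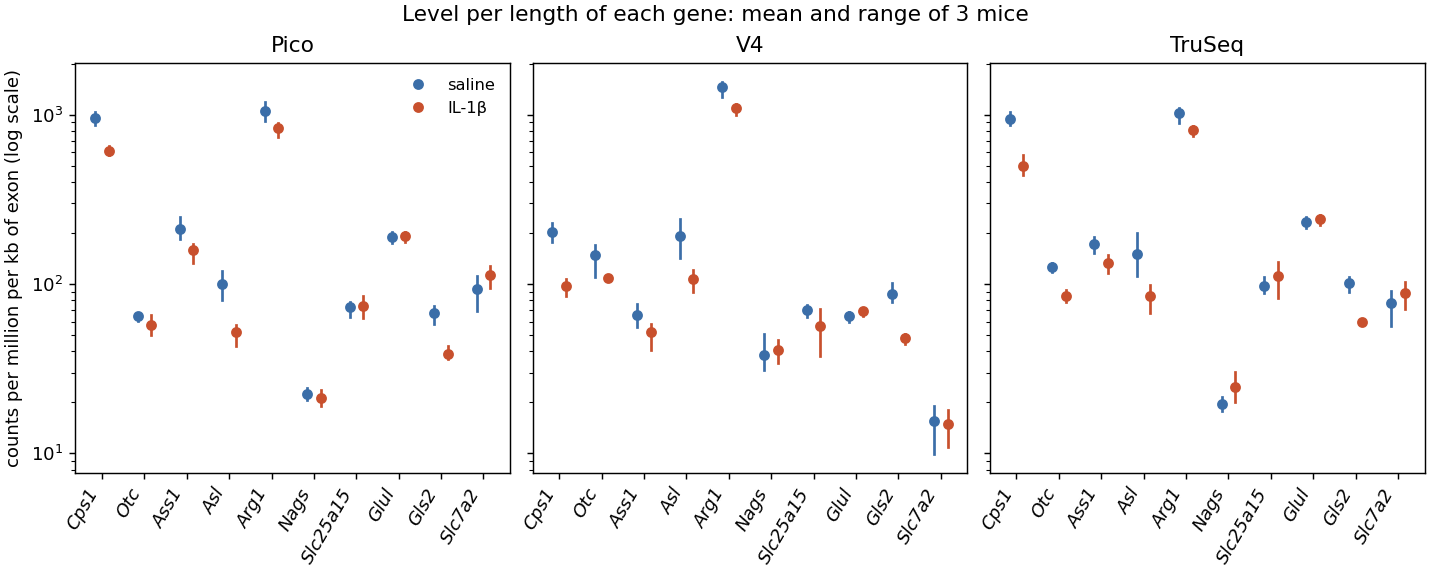
Level of each gene as CPM per kilobase of exon (vertical axis, log scale) by kit, as mean (point) and range (line) of 3 mice, saline in blue and IL-1β in orange. Arg1 leads with every kit, and Cps1 and Slc7a2 stand lower in V4 than in the other panels.

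V4 counted some members far less often than TruSeq did from the same mice. Over the 6 mice, the CPM of Slc7a2 in V4 was 0.181 of that in TruSeq (log2 ratio -2.47 ± 0.21 SD), that of Cps1 0.204 (-2.29 ± 0.23), that of Glul 0.283 (-1.82 ± 0.05) and that of Ass1 0.385 (-1.38 ± 0.11). All 6 mice of each showed the lower level. Slc25a15 and Gls2 stood at 0.600 and 0.832 of their TruSeq CPM. Nags, Arg1, Asl and Otc were higher in V4, at 1.78, 1.39, 1.28 and 1.21 times, though Otc not in every mouse. Across 8960 well-counted genes (mean of 20 or more counts with each kit), the median log2 ratio was -0.42, with -2.49 at percentile 5 and 1.34 at percentile 95. 7.06% of them had a ratio at or below that of Cps1 and 5.23% at or below that of Slc7a2. Between Pico and TruSeq the members lay closer, from 0.588 for Otc and 0.647 for Asl to 1.23 for Slc7a2. So in saline V4 libraries Cps1 held 202 ± 27.2 CPM per kb beside 1454 ± 154 for Arg1, and the pair that overlapped in TruSeq and Pico stood apart.

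For some members the order of the mice recurred from kit to kit. Mouse ILB_9579 had the lowest CPM of the IL-1β mice with all 3 kits for 8 of the 10 members, all but Otc and Gls2. Among the saline mice the lowest was the same with all 3 kits for 6 members, namely mouse UNT_9574 for Ass1, Asl, Arg1 and Nags, UNT_9575 for Glul and UNT_9576 for Slc7a2. The highest mouse recurred less often, for 4 members among the saline mice and for 1 among the IL-1β mice. The whole order of the saline mice was the same with each kit for Ass1, Asl and Arg1, and that of the IL-1β mice for Slc25a15. Mouse UNT_9576 joined the highest Asl level, 0.27 to 0.45 above its group mean on the log2 scale, to the lowest Slc7a2 level. The RNA of a mouse was shared by the kits, so these orders describe 6 mice and not 18 samples. How often such orders recur over all genes was not counted. Deviations of the same mouse also correlated between kits over 8960 genes, so the recurrence is not shown to be particular to the members.

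The genes whose levels ran most like those of the members were found over the 18 libraries, as the Pearson correlation of log2(CPM + 1) centred on each kit. The points share libraries, kits and treatment, and the correlations are a description. Gls2 ran with Uox, the urate oxidase gene (r = 0.985), Asl with Mgll, which codes for monoglyceride lipase (0.976), and Arg1 with Serpina6, the gene of the corticosteroid-binding globulin (0.974). Otc ran most with the sulfotransferase gene Sult1b1 (0.952) and Ass1 with Gm6484 (0.954), ahead of its own copy Gm5424 (0.910). For the members not called, the highest values were 0.872 for Nags (Atp6v0c), 0.862 for Slc7a2 (Rangap1), 0.824 for Glul (Pnpla2) and 0.795 for Slc25a15 (Tram2). The difference between treatments was left in these levels, and genes that differ alike correlate through it. Lower values for members not called are therefore no separate result.

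The wider nitrogen pathway was read from 4 lists of 73 other genes. In TruSeq 26 of the 69 with counts were lower and 20 higher, in Pico 24 of 69 lower and 12 higher, and in V4 16 of 68 lower and 7 higher. Their median log2 fold change was -0.27, -0.34 and -0.35, each below the median of all genes given above. Of all genes, 21.8% were lower and 12.3% higher in TruSeq, 10.8% and 6.78% in Pico, and 7.41% and 3.6% in V4. Where the mean reached 20 counts, 30.8% were lower and 17.9% higher in TruSeq, 17.4% and 10.6% in Pico, and 10.7% and 5.33% in V4. Of the 20 genes that release ammonia or handle glutamate, 10 were lower and 6 higher in TruSeq, 10 and 3 in Pico, and 5 and 2 in V4. The median log2 fold change of these 20 was -0.39, -0.16 and -0.47 in the same order. Genes of amino acid breakdown fell with all kits: histidine ammonia-lyase Hal (TruSeq log2 fold change -1.60, SE 0.12), the proline dehydrogenases Prodh (-1.03, SE 0.15) and Prodh2 (-0.87, SE 0.13), alanine aminotransferase Gpt (-0.84, SE 0.13) and the glycine cleavage protein Gcsh (-0.76, SE 0.11). Serine dehydratase Sds, which frees ammonia from serine, went the other way with all kits, from a mean of 1438 to 4174 counts in TruSeq (1.60, SE 0.24, adjusted p = 0.000715). It rose by 1.23 (adjusted p = 0.000371) in Pico and 1.45 (adjusted p = 0.00644) in V4.

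Among 15 genes that use arginine and ornithine, 6 were higher and 5 lower in TruSeq, 3 and 1 in Pico, and 2 and 0 of 14 in V4. The median log2 fold change of this list was 0.019, 0.027 and -0.18, above the median of all genes with each kit. Nos2, the inducible enzyme that makes nitric oxide from arginine, had 0 counts in all 9 saline libraries. After IL-1β it had 47, 40 and 9 counts in TruSeq, 52, 73 and 13 in Pico and 64, 38 and 22 in V4. Against a floor of 3 counts per saline library, Nos2 was at least 10.99-fold higher in TruSeq, 15.6-fold in Pico and 13.8-fold in V4. Sat1, which acetylates polyamines, rose by 1.17 in TruSeq (SE 0.12), 1.16 in Pico and 1.48 in V4. Arg2, the other arginase, had under 10 counts in every library. In TruSeq it had 1, 2 and 2 counts in saline and 7, 9 and 5 after IL-1β and was called higher (1.84, adjusted p = 0.0121), and it was not called in Pico (0.80, adjusted p = 0.605) or V4 (0.38, adjusted p = 0.85).

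Of 20 measured transport genes, 6 were higher and 4 lower in TruSeq, 4 and 5 in Pico, and 3 and 4 in V4. The median log2 fold change of this list was -0.15, 0.080 and -0.27, above the median of all genes in TruSeq and Pico. Slc25a13, the liver aspartate-glutamate carrier that exports aspartate for the Ass1 step, fell with all kits, at log2 fold changes of -1.32 in TruSeq, -0.995 in Pico and -1.19 in V4. Aqp9, a channel for glycerol and urea, had -1.24, -1.12 and -1.10, all called. The amino acid carriers Slc38a4 (-1.04, -0.93 and -0.75) and Slc38a3 (-0.41, -0.51 and -0.68) were called lower as well. Slc38a2, which takes up small neutral amino acids, rose by 1.15, 1.26 and 1.11 in the same order. Slc7a7, which exchanges cationic for neutral amino acids, rose by 1.89, 2.91 and 1.40 from means of 30, 4.67 and 43.7 counts in saline. Slc7a1, the cationic amino acid carrier of most other tissues, had 8 to 12 counts in saline and 44 to 51 after IL-1β in TruSeq (2.20, adjusted p = 0.000265). It was called higher in Pico as well (2.87, adjusted p = 0.00455), from 3 to 5 counts up to 23 to 43, but not in V4 (2.61, adjusted p = 0.119), where no library passed 13 counts.

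The lowest list median lay with 14 genes that supply or regulate the cycle, at -0.60 in TruSeq, -0.82 in Pico and -0.72 in V4. In these kits 7, 8 and 7 of the 14 were lower and 2, 2 and 0 higher. Car5a, the mitochondrial carbonic anhydrase that gives Cps1 its bicarbonate, went from a mean of 711 to 146 counts in TruSeq (log2 fold change -2.23, SE 0.16, adjusted p = 1.09e-05), from 153 to 29 in Pico (-2.39, adjusted p = 3.24e-05) and from 1429 to 307 in V4 (-2.18, adjusted p = 0.00053). The estimate for Car5a lay below that of each cycle enzyme in the same kit, and that difference was not tested. Sirt3, a mitochondrial deacetylase, had a TruSeq log2 fold change of -1.27, the transcription factor Cebpa -1.16, the liver transcription factor Foxa1 -1.07 and the glucagon receptor gene Gcgr -0.70, and all 4 were called lower with each kit. Hnf4a, named after its values were seen, rose by 0.91 in TruSeq and 0.65 in Pico and had 0.48 (adjusted p = 0.166) in V4.

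**Figure D5:**
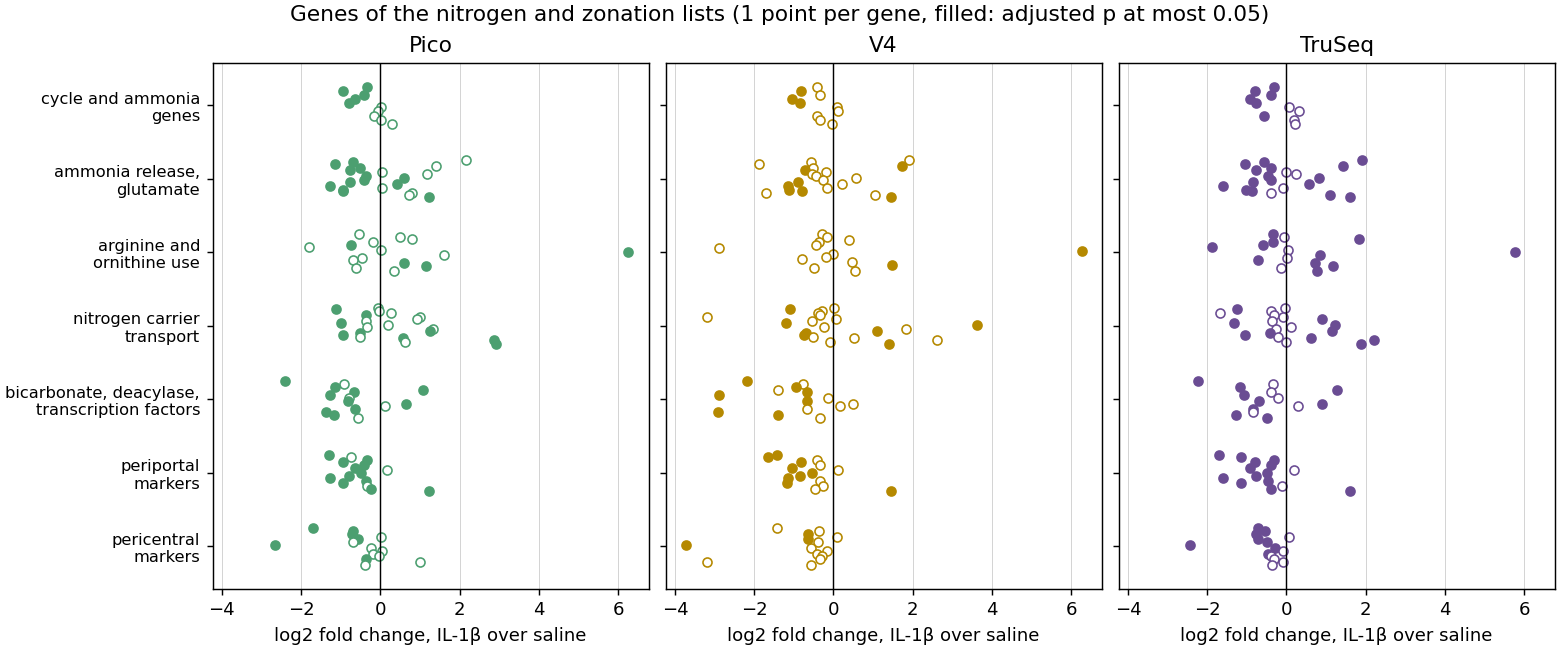
Log2 fold change (horizontal axes, IL-1β over saline) of every measured gene of the member, pathway and zonation lists (rows) by kit, with 1 point per gene, filled where the adjusted p was at most 0.05. Most filled points lie left of 0 in every kit, and the point furthest right in each panel is Nos2.

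Cps1, Ass1, Asl, Arg1 and Gls2 are known as periportal genes and Glul as a pericentral one, so the other genes of both zones were counted. Without the members, 7 of 10 periportal markers were lower and 1 higher in TruSeq, 6 and 1 in Pico, and 5 and 1 in V4, with median log2 fold changes of -0.48, -0.43 and -0.51. Of 13 pericentral markers, 8 were lower in TruSeq, 6 in Pico and 3 in V4 and 0 were higher, with medians of -0.47, -0.40 and -0.56. Apart from 1 periportal gene, the markers called in either zone were lower. Counted with Glul, 6 of 14 pericentral markers were not called in TruSeq, 8 in Pico and 11 in V4. Of all genes, 21.8% were lower in TruSeq, 10.8% in Pico and 7.41% in V4. Where the mean reached 20 counts, these shares were 30.8%, 17.4% and 10.7%. Agxt2l1 (-1.70), Hal and Hsd17b6 (-1.15) fell on the periportal side and Lgr5 (-2.43), Cyp2e1 (-0.76) and Gulo (-0.73) on the pericentral side, in TruSeq and with the other kits too. Sds was the periportal gene that rose, and Hal and Sds stand in the ammonia list too.

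Markers of other cells moved with the treatment as well. Neutrophil markers rose, 6 of 6 measured in Pico, 5 of 8 in V4 and 6 of 9 in TruSeq, from a sum of 3.36 to 6.32 CPM in saline to 45.5 to 89.2 CPM after IL-1β in TruSeq. Ngp, a granule gene of neutrophils, was at 0 in all saline libraries. The sum of 11 Kupffer cell and macrophage markers was 205 to 313 CPM in saline and 104 to 154 after IL-1β in TruSeq, and that of 8 endothelial markers 298 to 326 and 155 to 172. The 10 hepatocyte markers together went from 100678 to 118368 CPM down to 78408 to 82312, with 5 of them called lower and 2 higher. Cps1 alone held 4796 to 5730 CPM in saline TruSeq, more than the summed neutrophil, Kupffer cell and macrophage, or endothelial markers. These values are not set per length and do not measure numbers of cells. The part of cell composition in the lower member counts was not tested.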

How the data were processed

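RNA-Seq libraries of 3 IL-1β and 3 saline mice per kit were analysed from 3 tables of gene counts. The deposited values are counts that the authors made with GSNAP, mm9 and their PORT pipeline, after removal of ribosomal reads and resampling to equal depth within a kit, strand by strand for the stranded kits (sense reads used) and without strand for V4. The Pico preparation was made more than once, and the run in the table is not given in the sources used here. Coordinates are those of GENCODE M1 on NCBIM37 (mm9), since the deposited ones are padded.

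Each kit was fitted with limma-voom, the tool in the study's methods (limma 3.58.1, R 4.3.3) on library totals, leaving out genes with 0 counts throughout a kit, with Benjamini-Hochberg adjustment and a threshold of 0.05, and interactions on the 12 libraries of a kit pair. The scripts were tested on simulated data. edgeR 4.0.16, DESeq2 1.42.0, TMM factors, a filter of 10 counts in 3 libraries, no filter, thresholds of 0.1 and 0.01 and leaving out each mouse were the alternatives. Transcripts were searched against mm9 with BLAST 2.17.0 at 95% identity over 100 bases. Levels used the union of exons.

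The mouse number pairs libraries across kits, as RNA of each mouse was split. Over 8960 genes, deviations from the group mean correlated at 0.194 to 0.446 (Pico and TruSeq), 0.168 to 0.458 (V4 and TruSeq) and 0.0796 to 0.234 (Pico and V4) for the same mouse, and at -0.36 to -0.0327 for different mice. Deviations cancel within a group of 3 mice, so the negative values follow from the positive ones and add no separate information. No 2 libraries of a group agreed within sampling noise (lowest chi-square over its degrees of freedom, 7.63). Members and lists were chosen with earlier results of these data known. All members were named. Of each list, genes called in 1 direction with all kits were named, at most 6 per list and direction by size in TruSeq, and for likeness the closest genes (that of Cps1 is not reported here). Slc7a1, Arg2, Hnf4a and Ngp were named after their values were seen. Library totals stand in the report, and intervals rest on 3 mice a group.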

Additional observations from a re-analysis of the deposited data

How the results depend on the processing

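The direction and the call of Cps1 and Gls2 held with all alternatives in all kits. With edgeR, DESeq2 and voom with TMM factors alike, 3 members in Pico were lower and 1 higher (Slc7a2), and 1 was higher in TruSeq (Nags). At a threshold of 0.01, 3 members were lower in Pico and 3 in TruSeq. Leaving out each mouse gave 3 to 6 members lower in TruSeq, 3 to 5 in Pico and 2 to 4 in V4, and 0 to 1 higher in TruSeq (Nags, called without mouse ILB_9579). In V4 the pathway genes called higher were 11 with edgeR, 12 with DESeq2 and 4 at 0.01 (4 to 6 without single mice), and those called lower 8 at 0.01 (8 to 17). Over all genes, 4081 were called in TruSeq, 1884 in Pico and 764 in V4 at 0.01, and 2982 in V4 at 0.1, with 5114 to 5606, 1765 to 2603 and 908 to 2093 without single mice. With the longest transcript as length, the rank of 3 members (Ass1, Asl and Glul) in the saline TruSeq libraries changed, and ranks moved in the other kits and groups too, such as that of Cps1 in saline V4 from 2 to 4.

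Signs changed only among values that were not called. Nags in Pico was 0.065 with edgeR, 0.060 with DESeq2 and 0.062 with TMM, and -0.15 to 0.013 without single mice. Slc7a2 in V4 was 0.11 with edgeR, 0.12 with DESeq2 and 0.14 with TMM, and -0.32 to 0.19 without single mice. Without single mice, Slc25a15 in Pico ran from -0.070 to 0.14, Glul in Pico from -0.029 to 0.083 and Nags in V4 from -0.00027 to 0.36. The causes were not tested.

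With the mouse as a replicate block in the interactions, 0 members differed in each kit pair, as without it, and over all genes 1 was called in Pico and TruSeq. The block gave 0.41 (adjusted p = 0.517) for Otc in that pair and changed no call of a member.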
